A study of Homo sapiens with 2 samples.

Results

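The Krüppel-like factors examined here are 10 members of the human KLF family: KLF2, KLF3, KLF4, KLF5, KLF6, KLF7, KLF9, KLF10, KLF11 and KLF13. They were taken as all probe sets of the array whose platform annotation gives exactly 1 gene symbol and whose symbol is in that list. The rule found 32 probe sets for the 10 genes, out of 41097 probe sets for 19775 genes. The cells were CL1-5, an established and highly invasive human lung adenocarcinoma line grown in DMEM with fetal bovine serum. One culture was treated for 24 h with 0.11 µM analogue 3, a derivative of the plant compound desmosdumotin C that carries iodo, tripropyl and methoxy groups, and the other received DMSO (0.05 µg/mL) for 24 h. Total RNA of each was hybridised to 1 Affymetrix Human Genome U133 Plus array, and the question was which transcripts differed in the treated culture. Since each group is 1 array, no difference could be tested, and p-values are not reported.

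Krüppel-like factors are transcription factors that bind GC-rich and CACCC sequences in promoters through zinc fingers at their C-terminal end, a DNA-binding domain they share with the SP factors. Outside the zinc fingers they differ, and the family is commonly divided by partner: KLF3 recruits the CtBP co-repressors, KLF2, KLF4, KLF5, KLF6 and KLF7 act largely as activators, and KLF9, KLF10, KLF11 and KLF13 bind the Sin3A co-repressor. Several members, among them KLF2, KLF4, KLF6 and KLF10, are known as rapidly induced, short-lived factors, and in epithelia KLF4 and KLF5 are known for opposite effects on growth.

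Promoter sequence is shown for KLF4, the member past 2-fold, for KLF6 and KLF13, which were lower by value without reaching 2-fold, and for KLF2, whose values lay closer together. Each line gives the 250 bases before the gene's RefSeq start on GRCh38.p14, 5′ to 3′ on the gene's strand. The capitals mark the GC box GGGCGG, the KLF-type letters CACCC and the box written CCAAT. These were searched on both strands, together with the TATA letters TATAAA, the cAMP response element TGACGTCA and the amino acid response letters TGATGNAAT.
KLF4, chr9:107489770-107490019, minus strand: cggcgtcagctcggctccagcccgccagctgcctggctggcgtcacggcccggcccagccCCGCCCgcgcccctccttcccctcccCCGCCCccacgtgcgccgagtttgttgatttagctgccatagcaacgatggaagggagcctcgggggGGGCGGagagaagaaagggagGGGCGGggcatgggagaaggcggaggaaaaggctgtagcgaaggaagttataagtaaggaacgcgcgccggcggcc
KLF6, chr10:3785210-3785459, minus strand: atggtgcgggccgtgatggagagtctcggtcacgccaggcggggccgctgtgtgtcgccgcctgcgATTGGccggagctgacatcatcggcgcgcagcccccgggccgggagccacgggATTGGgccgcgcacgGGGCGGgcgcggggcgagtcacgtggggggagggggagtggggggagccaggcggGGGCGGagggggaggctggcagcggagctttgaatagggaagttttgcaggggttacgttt
KLF13, chr15:31326585-31326834, plus strand: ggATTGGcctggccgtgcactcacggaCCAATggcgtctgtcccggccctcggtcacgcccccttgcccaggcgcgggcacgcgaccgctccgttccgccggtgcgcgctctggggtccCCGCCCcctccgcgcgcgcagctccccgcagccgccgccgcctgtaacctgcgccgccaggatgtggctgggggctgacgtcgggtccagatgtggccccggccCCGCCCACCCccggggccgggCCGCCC
KLF2, chr19:16324576-16324825, plus strand: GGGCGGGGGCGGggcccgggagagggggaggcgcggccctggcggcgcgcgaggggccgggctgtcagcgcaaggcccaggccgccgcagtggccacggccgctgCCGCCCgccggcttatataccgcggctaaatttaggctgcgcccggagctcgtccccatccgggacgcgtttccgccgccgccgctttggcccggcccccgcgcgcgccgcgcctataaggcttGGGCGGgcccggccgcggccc
The GC box GGGCGG stood 4 times before KLF4, 2 times before KLF6, 3 times before KLF13 and 4 times before KLF2. Of all 35116 RefSeq promoter windows of this length, 42.6% held it. CCAAT stood 2 times before KLF6 and 2 times before KLF13, and 32.0% of all windows held it. The letters CACCC were found 1 time before KLF13, overlapping a GC box, and not in the other 3 windows, against 54.7% of all windows. The TATA letters, the cAMP element and the amino acid response letters were in none of these 4 windows, and 10.7%, 1.65% and 0.888% of all windows held them. All 4 windows were GC-rich (69.2% G or C for KLF4, 72.4% for KLF6, 78.8% for KLF13 and 80.0% for KLF2, against a median of 58.0%). Of the 10 genes, 8 matched an entry in the RefSeq promoter table by symbol, with 13 windows, while KLF3 and KLF10 did not. Of these 13 windows, GGGCGG was in 8, CACCC in 6 and CCAAT in 6. The 4 windows shown do not stand for all of them: the KLF9 window had 32.4% G or C and no GC box.

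Intensities are multiples of the array median. They can be compared for one probe set between the arrays, but not between probe sets, so no order of level among the genes is given. A floor of 32 times the median (log2 5) was applied, under which differences of low signals were not counted. A gene was represented by its brightest probe set and called different at 2-fold or more. A fold with 1 array below the floor is a lower bound, written as "at least". The different probe sets of a gene gave an SD of 0.17 on the log2 scale for 1 probe set when both arrays were above the floor (1127 genes), 0.27 when the lower array lay between log2 3 and 5 (1118 genes) and 0.37 between log2 1 and 3 (1227 genes). This is the spread between probe sets of a gene, which can read different transcripts, on the same 2 RNA samples. It leaves out the spread between cultures.

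The deposited values of the 2 arrays were closely matched in scale, and part of this match is set by the scaling to each array's median. The highest values were 3117 with analogue 3 and 3078 with DMSO, and the median log2 difference over 18 spiked-in hybridisation controls was -0.03. Of the epithelial markers, KRT18 (457.9 with analogue 3 and 460.8 with DMSO) and KRT8 (77.8 and 42.3) lay above the floor, while EPCAM and CDH1 stayed under 1 on both arrays. The lung epithelial marker NKX2-1 was at 1.86 on both. None of the markers analysed for endothelium, leukocytes, fibroblasts or differentiated lung epithelium reached the floor, and their summed intensities with analogue 3 and with DMSO were 19.5 and 14.9, 2.82 and 3.34, 8.53 and 6.92, and 11.8 and 10.0. PECAM1, an endothelial marker, read 15.7 and 11.4.

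KLF mRNAs were level or lower with analogue 3, and none was 2-fold higher. KLF4 was 2.32-fold lower and KLF6 1.47-fold lower, and both KLF4 probe sets and 4 of the 5 KLF6 probe sets were lower. KLF3 and KLF13 were also lower by values, and KLF2 and KLF10 differed little. With the floor, 6 of the 10 genes were measured, of which 1 was at least 2-fold lower and 0 were at least 2-fold higher. Among all 5050 genes measured, 2.67% were at least 2-fold lower and 3.47% at least 2-fold higher. KLF3 and KLF13 reached the floor only on the DMSO array, so they had to differ downward. The number below 0 among the 6 and their median, -0.38 beside -0.01 over all measured genes, therefore support nothing. Without a floor, the brightest probe sets of 9 of the 10 genes were below 0, as were 52.2% of all 19775 genes, and 1 of the 10 was at least 2-fold lower and 0 were at least 2-fold higher, beside 3.66% and 2.40% of all genes. The median was then -0.52 over the 10 genes and -0.01 over all genes.

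**Figure D1:**
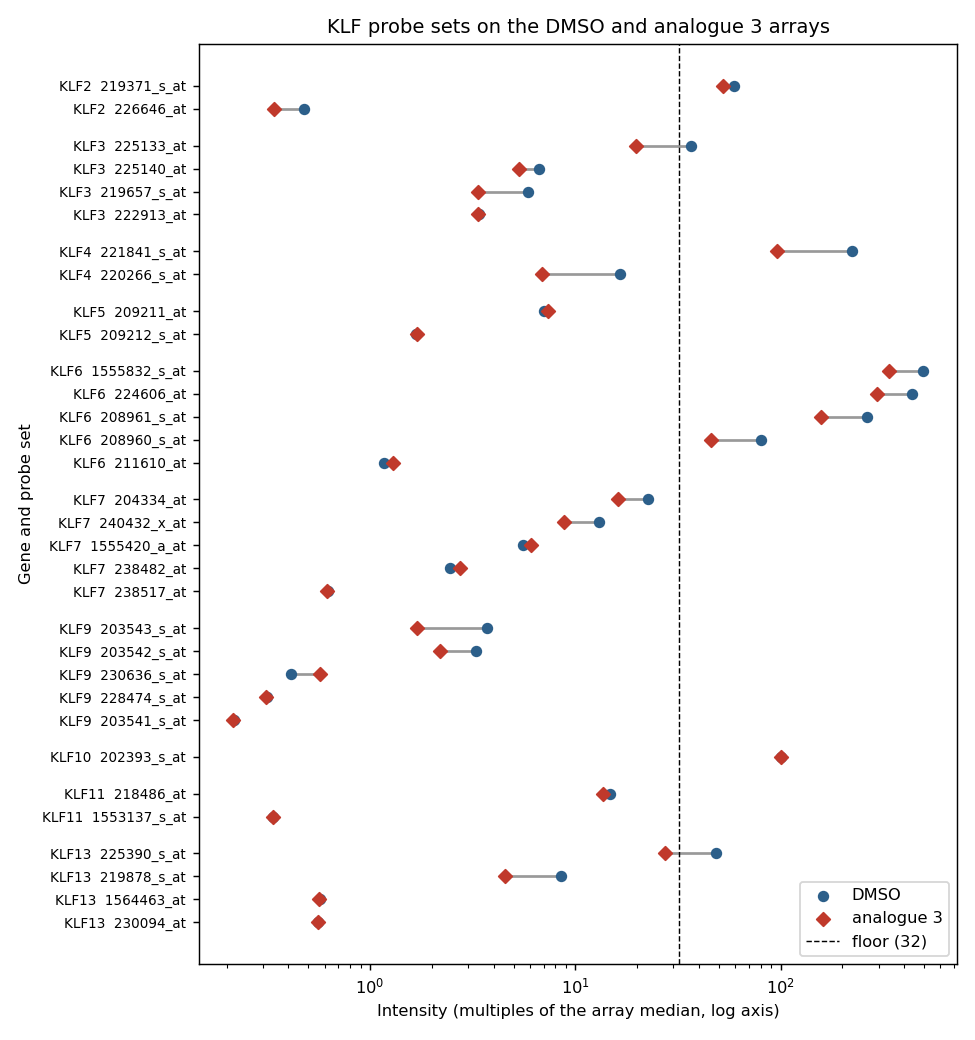
Intensity of each of the 32 KLF probe sets (1 row each, grouped by gene) on the DMSO array (circles) and the analogue 3 array (diamonds), in multiples of the array median on a log axis, with the floor of 32 as a dashed line. Both KLF4 rows and the 4 bright KLF6 rows have the analogue 3 diamond to the left of the DMSO circle, and the 2 symbols of KLF10 coincide.

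Among the activator members, KLF4, which restrains proliferation in many epithelia and is one of the reprogramming factors, had the largest difference of the measured KLF genes. Its brightest probe set read 96.2 with analogue 3 and 223.3 with DMSO, a log2 difference of -1.21. Its other probe set, under the floor on both arrays, read 6.91 and 16.6, a log2 difference of -1.26. The DMSO array was the higher one in both, and the 2 differences had a mean of -1.24 with an SD of 0.03. Of the 5050 measured genes, 80 (1.58%) had a lower value than KLF4. Its difference was 2-fold or more at floors up to log2 5 and after each of the 3 other scalings, but a floor of log2 7 left at least 1.74-fold, and the median of its probe sets, which lies under the floor with analogue 3, left at least 1.90-fold. Both of its probe sets carry the suffix _s_at, which marks probes that can match several transcripts.

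KLF6, a broadly expressed factor that is known to activate CDKN1A, was the KLF gene with the most probe sets above the floor. The brightest read 336.6 with analogue 3 and 493.5 with DMSO. The next read 294.1 and 435.6, and 2 others read 157.0 against 262.8 and 45.7 against 80.1. All 4 were lower with analogue 3, by 1.47-, 1.48-, 1.67- and 1.75-fold, and none reached 2-fold. The mean of the 4 log2 differences was -0.67 with an SD of 0.13, and each of the 4 differences was more than the 0.17 spread of 1 probe set. These probe sets read the same RNA, so they are not replicates of the treatment. The remaining KLF6 probe set lay near the array median, at 1.29 and 1.17. By its brightest probe set, 10.2% of measured genes lay lower than KLF6, which sets it apart less than KLF4.

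KLF2, a factor known from endothelial cells and resting T cells, read 52.6 with analogue 3 and 59.4 with DMSO. The log2 difference of -0.17 is about the SD of 1 probe set, so this gene did not differ beyond that spread. Its other probe set gave 0.339 and 0.477, below the array median on both. The endothelial markers VWF (0.376 and 0.379), TEK (0.514 and 0.453), KDR (1.15 and 1.03) and CDH5 (1.76 and 1.68) were near the array median or below it. PECAM1, the remaining endothelial marker, lay above the median on both arrays but under the floor, at 15.7 with analogue 3 and 11.4 with DMSO.

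KLF5, which promotes growth of epithelial cells, and KLF7, first known from neurons, were under the floor on both arrays. KLF5 read 7.32 with analogue 3 and 7.04 with DMSO in its brighter probe set, and 1.69 and 1.68 in the other. Both log2 differences, 0.06 and 0.01, were under 0.17, the smallest spread of 1 probe set given above. KLF7 read 16.1 and 22.6 in its brightest probe set (log2 -0.49) and 8.76 and 13.1 in the next (-0.58), while 2 dimmer ones read 6.10 against 5.53 and 2.75 against 2.44. Its probe sets therefore disagreed in sign: over the 4 with at least 2 times the median on both arrays, the mean was -0.19 with an SD of 0.40, and 2 were below 0.

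**Figure D2:**
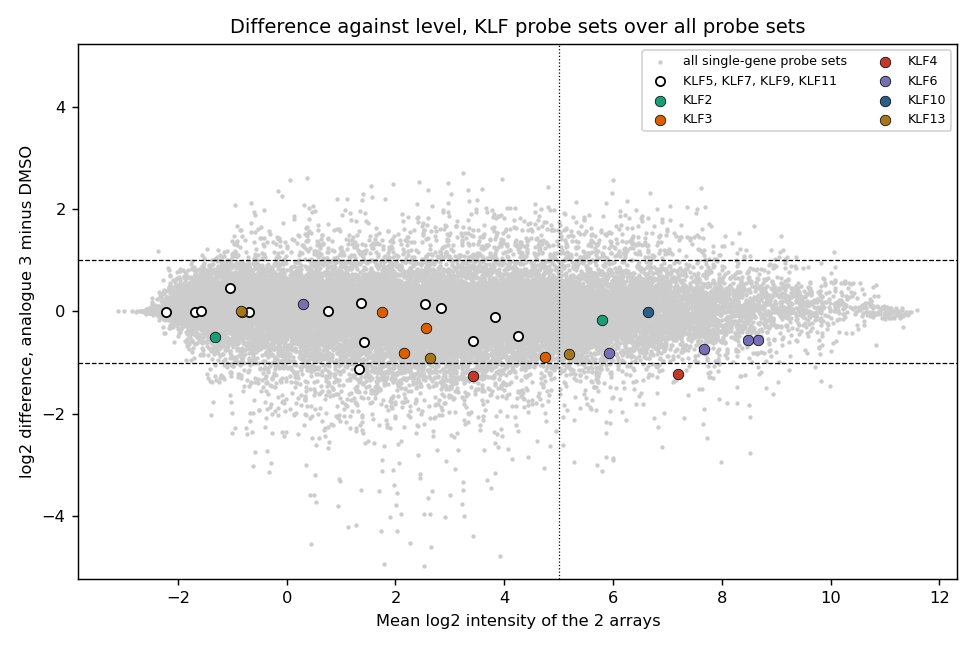
The log2 difference analogue 3 minus DMSO (vertical axis) against the mean log2 intensity of the 2 arrays (horizontal axis) for every single-gene probe set (grey) and the 32 KLF probe sets (large points, coloured by gene; open for KLF5, KLF7, KLF9 and KLF11). Dashed lines mark 2-fold and the dotted line marks log2 5; the 2 KLF4 points and 1 dim KLF9 point lie below the lower dashed line, and the 4 bright KLF6 points lie between it and 0.

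KLF3, the member that works through CtBP and represses genes of fat and blood cells, was lower with analogue 3 in its brightest probe set, at 19.8 against 36.8. Since the analogue 3 array lay under the floor, the bound is at least 1.15-fold lower. With a floor of log2 3 both arrays are measured and the difference is 1.86-fold (log2 -0.89). The 3 other probe sets read 5.28 against 6.62, 3.35 against 5.88 and 3.36 against 3.39. All 4 were below 0, with a mean of -0.51 and an SD of 0.42, so their size varied from almost none to 1.86-fold.

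KLF13, one of the Sin3A-binding members and a regulator of the chemokine gene CCL5 in T cells, read 27.4 with analogue 3 and 48.7 with DMSO. The bound against the floor is at least 1.52-fold lower, and with a floor of log2 3 the difference is 1.78-fold (log2 -0.83). A second probe set gave 4.56 and 8.54, or 1.87-fold lower. The 2 differences had a mean of -0.87 and an SD of 0.05, and the other 2 KLF13 probe sets were below the array median on both arrays.

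KLF10 and KLF11, also known as the TGF-β-inducible early genes, differed least among the Sin3A-binding members. KLF10 has 1 probe set, which read 100.1 with analogue 3 and 100.5 with DMSO. Its log2 difference was -0.01, and it turned to 0.01 when differences were centred on their median. KLF11 read 13.6 and 14.8 in its brighter probe set, a log2 difference of -0.12 that is under the spread of 1 probe set at that level. Its other probe set gave 0.336 and 0.335.

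KLF9, a glucocorticoid-induced member, was under 4 times the array median in all 5 probe sets. Its 2 highest probe sets read 2.18 against 3.28 and 1.69 against 3.71, and both were lower with analogue 3, with log2 differences of -0.59 and -1.13. The 3 others were below the array median, and 1 of them went the other way, at 0.568 against 0.413. The 0.37 spread of 1 probe set covers signals from log2 1 to 3, and the reading of 1.69 lay below that range. All 5 probe sets were under the floor on both arrays, so no difference is called.

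Lowering the floor brought more KLF genes in without adding one past 2-fold. With a floor of log2 3, 8 of the 10 genes were measured, each on both arrays. All 8 lay below 0 (55.5% of all 8523 genes measured), 3 were at least 1.5-fold lower (12.9% of all) and 1 at least 2-fold lower (3.92% of all). The 3 were KLF3, KLF4 and KLF13. The median was -0.52 over the 8 and -0.05 over all genes.

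**Figure D3:**
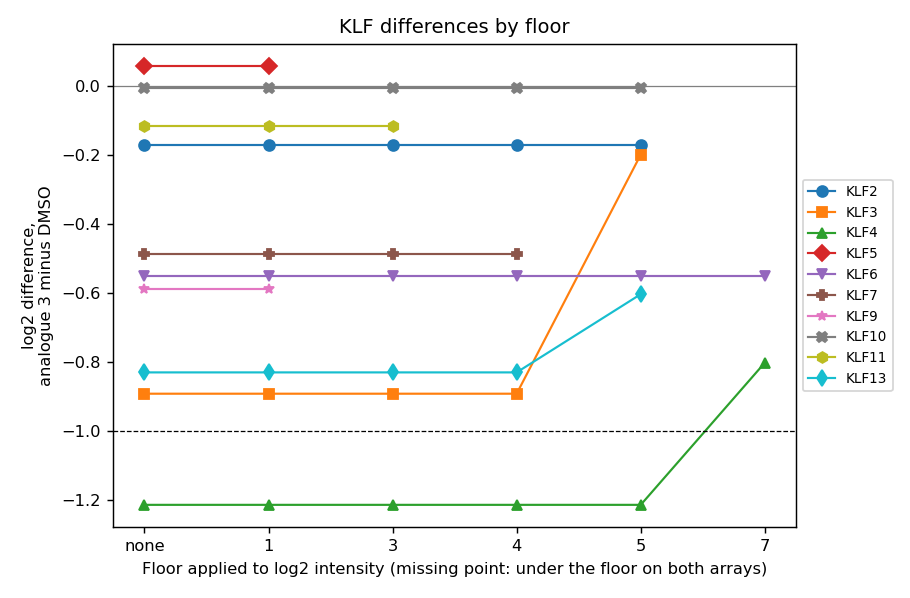
The log2 difference analogue 3 minus DMSO of each KLF gene's brightest probe set (vertical axis) under different floors on the log2 intensity (horizontal axis, from none to log2 7), with 2-fold lower as a dashed line. KLF6 stays at -0.55 under each floor, KLF3 and KLF13 shrink to bounds at log2 5, and KLF4 is past the 2-fold line except at log2 7.

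Few related zinc finger factors were measured. Of the 7 other KLF genes with a probe set, 0 reached the floor. KLF12, a CtBP-binding relative of KLF3, read 11.1 with analogue 3 and 15.9 with DMSO, while KLF1, KLF8, KLF14 and KLF17 were below the array median. Of the 8 SP genes with a probe set, only SP3 was measured, at 187.7 and 182.8 (log2 0.04). SP1, the general GC-box activator, read 20.0 and 19.8. By their brightest probe sets, the 3 SP genes at the floor of log2 3 were level or, for SP4 (19.9 and 15.9), higher in value. Their median was 0.04. Other SP3 probe sets went both ways, at 17.4 with analogue 3 against 21.0 with DMSO and 10.3 against 8.21. SP2, under that floor, read 5.03 with analogue 3 and 6.04 with DMSO.

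The measured genes of KLF partner proteins were within 2-fold, beside 3.47% of all measured genes at least 2-fold higher and 2.67% lower. The 10 measured co-regulator genes had a median log2 difference of 0.12, beside -0.01 over all measured genes. Of them, 1 was at least 1.5-fold higher and 0 at least 1.5-fold lower, beside 9.45% and 9.13% of all measured genes. The 1 was SAP30, a Sin3 complex subunit gene, at 148.4 with analogue 3 and 93.9 with DMSO (1.58-fold higher). The histone demethylase gene KDM1A and the deacetylase genes HDAC2 and HDAC3 were 1.40-, 1.33- and 1.24-fold higher by value. The acetyltransferase genes EP300 and CREBBP, coactivators of KLF proteins, were 1.37- and 1.29-fold lower by value. CTBP1 and CTBP2, the KLF3 partners, differed by -0.04 and 0.05 on the log2 scale.

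Of the genes for turnover of KLF proteins, 4 were measured. Of these, 0 were at least 1.5-fold higher or lower, beside 9.45% and 9.13% of all measured genes. WWP1, a ubiquitin ligase for KLF2 and KLF5, read 57.3 and 54.5. SMURF2, ITCH and SIAH1, other ubiquitin ligases, differed by 0.01, 0.15 and -0.31 on the log2 scale. FBXO32, a muscle-atrophy ubiquitin ligase, was not measured above the floor and read 1.69 with analogue 3 against 10.2 with DMSO; it lies outside the naming rule and was picked once its values were known.

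Among signalling genes upstream of the family, 6 were measured and 0 were past 2-fold, beside the 2.67% lower and 3.47% higher over all genes. FOXO3, a transcription factor of the stress and growth factor response, was 1.55-fold lower, at 85.5 against 132.7. EGR1, an immediate early transcription factor, read 12.8 with analogue 3 and 44.4 with DMSO, a bound of at least 1.39-fold lower; with a floor of log2 3 its log2 difference was -1.79. The glucocorticoid receptor gene NR3C1, known to induce KLF9, read 150.0 and 180.6 (log2 -0.27). SMAD2, SMAD3 and TGFBR1, of the TGF-β pathway that induces KLF10 and KLF11, differed by -0.23, -0.06 and 0.17.

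**Figure D4:**
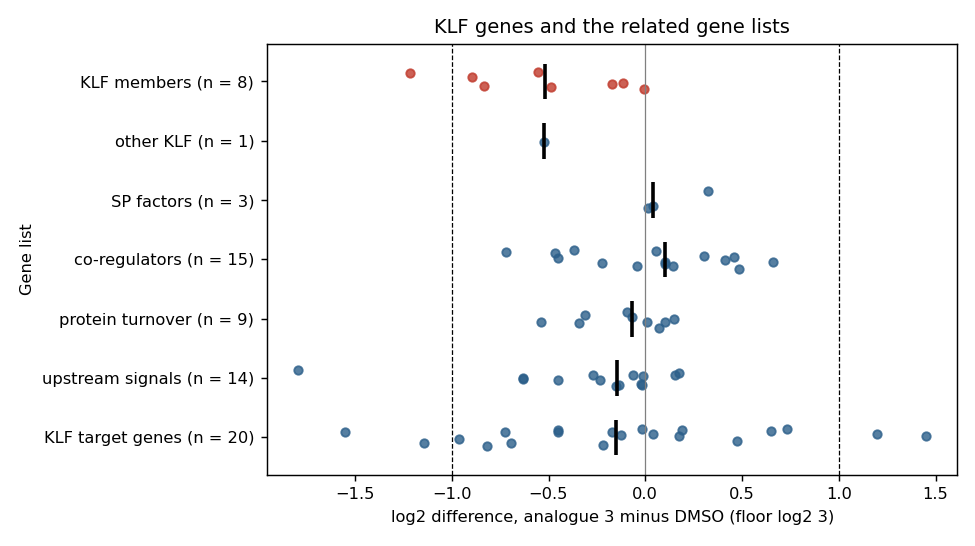
The log2 difference analogue 3 minus DMSO (horizontal axis, floor log2 3) of each gene at or above that floor on at least 1 array, for the KLF members (red) and 6 related lists (blue); black bars are medians, dashed lines mark 2-fold and vertical jitter has no meaning. The KLF median is at -0.52, the SP median at 0.04 and the co-regulator median at 0.10.

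Genes that KLF proteins are known to regulate differed in both directions. Of the 40 listed, 12 were measured. Of these, 2 were at least 2-fold higher and 0 at least 2-fold lower, beside 3.47% and 2.67% of all measured genes. Their median was -0.10, beside -0.01 over all measured genes. CDKN1A and PDGFA reached the floor only on the DMSO array, so they had to differ downward and the sign of this median supports nothing. At 1.5-fold, 3 were higher and 4, with CDKN1A among them, were lower, beside 9.45% and 9.13% of all measured genes. The 3 higher are genes of cell division. BIRC5, encoding survivin, read 190.6 with analogue 3 and 69.7 with DMSO (2.73-fold higher). The mitotic cyclin gene CCNB1 was 2.30-fold higher and the G1 cyclin gene CCND1 1.66-fold higher. CDKN1A, which encodes the cell cycle inhibitor p21, read 25.8 with analogue 3 and 57.0 with DMSO, at least 1.78-fold lower. LGALS3, encoding galectin-3, was 1.95-fold lower, at 174.3 against 340.2, and the urokinase gene PLAU 1.76-fold lower. With a floor of log2 3, 20 were measured, 2 of them at least 2-fold higher and 2 at least 2-fold lower, beside 3.74% and 3.92% of all 8523 genes. The 2 lower were CDKN1A (log2 -1.14) and the growth factor gene PDGFA, at 11.6 with analogue 3 and 33.8 with DMSO (log2 -1.55), which counts only as at least 1.06-fold lower at log2 5. THBD, the thrombomodulin gene, read 132.8 with analogue 3 and 215.0 with DMSO, 1.62-fold lower. THBD and PDGFA fall outside the naming rule and were chosen after their values were seen. The cell division genes and CDKN1A thus differed in opposite directions, and whether KLF levels had a part in this was not tested.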

How the data were processed

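Messenger RNA levels were measured on 2 Affymetrix arrays, 1 per group. The authors deposited 1 linear intensity per probe set and array for 54675 probe sets; GCRMA is named in the submitters' processing notes, and its version is not given in the sources used here. Each array's median is 1, so a division by the median was read from the values. Gene names came from the platform annotation in GEO: 41097 probe sets had 1 symbol, 1801 several and 11777 were not listed. All 32 KLF probe sets matched RefSeq (GRCh38.p14) by gene number. Promoter windows came from a RefSeq table of the same build; no genome was given, and the arrays' values have no coordinates.

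Values were log2-transformed and raised to the floor of log2 5, which 13.1% of probe sets reached with analogue 3 and 13.4% with DMSO, and analogue 3 minus DMSO was taken (Python 3.11.15, pandas 2.3.3, statsmodels 0.14.6 for loess, span 0.3). The number of arrays limits the precision. The calling step was tested on simulated data. Members and lists were chosen with earlier results of these data known. All 10 KLF genes are named, and up to 6 measured members of each list with the largest differences; members named beyond these were chosen after their values were seen. Identity of the zinc fingers was not analysed here.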

Additional observations from a re-analysis of the deposited data

How the results depend on the processing

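A value was taken as moved when it changed by more than the 0.17 log2 SD of 1 probe set, or when a count changed by more than 1.5 times. The count of 0 KLF genes at least 2-fold higher held under all 12 alternatives. The count of 1 at least 2-fold lower (KLF4) became 0 with a floor of log2 7, with the median over the probe sets of a gene, without _s_at and _x_at probe sets (which leaves out KLF4) and at 3-fold, and 2 at 1.5-fold. The median log2 difference of -0.38 was -0.55 over 7 genes with a floor of log2 4 and -0.68 over 2 with log2 7. It was -0.74 over 3 with the median of probe sets. Under the 7 other settings it moved by less than 0.17 and stayed negative. At the main floor, KLF3 and KLF13 had to differ downward, so the sign of this median supports nothing. The same holds under median centring, loess removal and quantile normalization, which kept both genes, and without _s_at and _x_at probe sets, which kept KLF3. With a floor of log2 7 and with the median of probe sets, KLF4 reached the floor only on the DMSO array. It had to differ downward there, so the signs of the medians -0.68 and -0.74 support nothing either. With a floor of log2 3, where each measured KLF gene was above the floor on both arrays, the median was -0.52. In values of single KLF genes, 38 alternatives moved by less than that SD and 11 by more. KLF4, the only gene called, stayed lower under each setting that measured it. With a floor of log2 7 or the median of probe sets, KLF4 could not have done otherwise. KLF10, which was not called, changed sign with median centring, from -0.01 to 0.01. With 1 array per group, no error between cultures is known.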
